A study of Mus musculus with 11 samples.

Results

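The microRNAs described here are those named after the hairpin families of the Sfmbt2 intron: every row of the count table named miR-297, miR-466, miR-467 or miR-669 followed by a letter, on either arm. There were 80 such mature miRNAs of 1966 in the table. By family, 6 were miR-297, 31 were miR-466, 13 were miR-467 and 30 were miR-669. By arm, 33 were named 5p, 35 were named 3p and 12 had no arm in their name.

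Sfmbt2 codes for a Polycomb group protein and is an imprinted gene, expressed from the paternal copy in extraembryonic tissues. One of its introns holds a large rodent cluster of near-identical miRNA hairpins that arose by repeated duplication, known from work on embryonic stem cells and placenta. A canonical miRNA is cut out of its host transcript as a hairpin by the Microprocessor, in which DGCR8 binds the stem and the loop end and the ribonuclease Drosha cuts. Dicer then cuts the hairpin into a duplex of a 5p and a 3p strand, and usually one strand is loaded into Argonaute and kept.

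The data were 11 libraries of small RNA. All were made from mouse embryonic stem cells that share one strain label and were grown without feeder cells in 2i medium with LIF. Transfected clones carried pSB ET iE-FlagDGCR8-wt (genotype label DGCR8 wt/wt) or pSB ET iE-FlagDGCR8-E518K (genotype label DGCR8 E518K/E518K), each with the Sleeping Beauty transposase plasmid pCMV(CAT)-SB100X. E518K is a DGCR8 substitution found in Wilms tumour, a childhood kidney cancer. The 5 groups were wild type with doxycycline at 300 ng/mL for 48 h (clones 10, 12 and 16), E518K with the same treatment (clones 8, 13 and 15), non-transfected DGCR8 -/- cells with the same treatment (KO, 3 libraries), untreated wild type (clone 10 only) and untreated E518K (clone 8 only). Every transfected line is a clone, the 3 KO libraries all name clone 261, and the labels used here do not say whether the transfected clones derive from the DGCR8 -/- line. The series' design text speaks of independent clones in every condition, 3 each, which the KO titles do not bear out. Since no label ties the KO libraries to different cultures, p-values with KO measure only the spread between these libraries.

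RefSeq hairpins of GRCm38.p6 matched 78 of the 80 members by name, with 80 hairpins in all. Of these, 70 lay within Sfmbt2 (chr2:10370440-10595253, plus strand), all on the plus strand and all intronic, spread over 51.62 kb (chr2:10466663-10518279). The other 10 hairpins lay elsewhere in the genome. Every matched hairpin was within Sfmbt2 for 64 members, some were for 5 members (the arms of miR-297a and miR-466f), and none was for 9 members. RefSeq mature sequences matched 8 members, all of them from hairpins outside Sfmbt2. The 4 of these that had any count are shown because they let a reader see the repeat-like makeup of the family names, runs of UG or of CA. Capitals mark the seed, bases 2 to 8 from the 5′ end, the stretch with which a miRNA pairs to its targets.
miR-466k: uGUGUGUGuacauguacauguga
miR-467h: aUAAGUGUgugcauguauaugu
miR-466q: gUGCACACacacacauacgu
miR-466i-3p: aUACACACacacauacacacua
miR-466k lies at chr3:85467396-85467418 (plus strand), miR-467h at chr9:115381898-115381919 (plus), miR-466q at chr3:28419988-28420007 (plus) and miR-466i-3p at chr13:17747552-17747573 (plus). No seed was shared by any pair of the 4.

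These members away from Sfmbt2 were hardly read. miR-466k had 4, 2 and 6 counts in induced wild-type clones 10, 12 and 16, miR-467h had 2, 2 and 0, miR-466q had 0, 2 and 0, and miR-466i-3p had 0, 0 and 2. No member with all its hairpins outside Sfmbt2 exceeded 12 counts over the 3 induced wild-type libraries or had a count in induced E518K or KO. The counts of the named set therefore came almost wholly from members with hairpins in the Sfmbt2 intron.

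Several members are not separate measurements. miR-297b-3p and miR-297c-3p had the same count in every library (415 counts in total), and miR-297a-3p had about double that (832 counts, 0.24% of them differing from an exact doubling). miR-466d-5p and miR-466n-5p also had equal counts (48 each). miR-669m-5p, from a pair of hairpins, had about double the counts of miR-669b-5p (2816 against 1404, 0.28% differing), although the hairpin of miR-669b lies near one end of the cluster and those of miR-669m near the other. Members were called locked together where their counts matched, equal or doubled, within 2%. The rule for reads that match several near-identical copies is not given in these sources. Low counts were mostly even: 92.2% of the 218 member values from 1 to 40 and 90.3% of the 4873 such values of all miRNAs, so a floor of 6 counts per library was used in place of 3.

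Total miRNA counts ranged from 166676 to 208846 in KO, from 3394216 to 6128734 in induced wild type and from 1050564 to 1797240 in induced E518K. The untreated libraries held 1421247 (wild type) and 264507 (E518K). One floor of 6 counts thus stood for 12.8 to 18.3 scaled CPM (counts relative to library size after TMM scaling, a factor that evens out the bulk of miRNAs between libraries) in KO and 1.11 to 2.94 CPM in induced wild type. Dgcr8 itself is not measured by small RNA libraries, so the labels were set against miRNA lists. The embryonic stem cell list (20 miRNAs) took 34.4% to 39.6% of counts in induced wild type, 15.7% to 18.0% in induced E518K and 0.127% to 0.373% in KO, and 1.43% in untreated E518K against 32.0% in untreated wild type. The mesenchymal or feeder list (11 miRNAs, 8 to 10 with a count in each library) took 0.247% to 0.357% in induced wild type, 0.195% to 0.276% in induced E518K and 1.30% to 1.90% in KO. The neural list (10 miRNAs) stood at 0.230% to 0.473%, 0.109% to 0.163% and 0.0211% to 0.0264% in the same groups, and the blood, muscle and liver lists were at or under 0.0480% in every library. A list of 13 miRNAs made without DGCR8 took 12.3% to 17.2% in KO and 16.0% in untreated E518K, against 0.104% to 0.180% in induced wild type, 0.902% to 1.63% in induced E518K and, for wild type without treatment, 0.880%. The part of these shifts in the results below was not tested. Fewer cells of a type and less of a miRNA per cell cannot be told apart in such bulk libraries.

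The cluster was a small part of the miRNA pool in the transfected clones, and was close to absent in KO. It took 0.192%, 0.176% and 0.263% of counts in induced wild-type clones 10, 12 and 16, and 0.381%, 0.456% and 0.198% in induced E518K clones 8, 13 and 15. The KO libraries held 43, 30 and 38 cluster counts, or 0.0206%, 0.0180% and 0.0224%. The wild-type and E518K ranges overlapped, with E518K clone 15 inside the wild-type range, and every KO share was below every other library. The untreated libraries lay at 0.189% (wild type) and 0.165% (E518K).

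One member, miR-669c-5p, carried much of this. It made up 48.6%, 38.6% and 43.3% of cluster counts in induced wild type and 82.2%, 75.8% and 70.9% in induced E518K. These ranges did not overlap. Without miR-669c-5p the cluster was 0.119% ± 0.0269 (SD, n = 3) of counts in induced wild type and 0.0786% ± 0.0279 (n = 3) in induced E518K, so the order of the group means turned round when this single member was set aside. Per count of all other members together there were 0.779 ± 0.158 counts of miR-669c-5p in induced wild type and 3.40 ± 1.12 in induced E518K. In the single untreated libraries the ratio was 3.32 (wild type clone 10) and 2.96 (E518K clone 8), in the range of induced E518K and above every induced wild-type library. These are shares of read counts within a library and do not depend on the scaling between libraries.

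**Figure D1:**
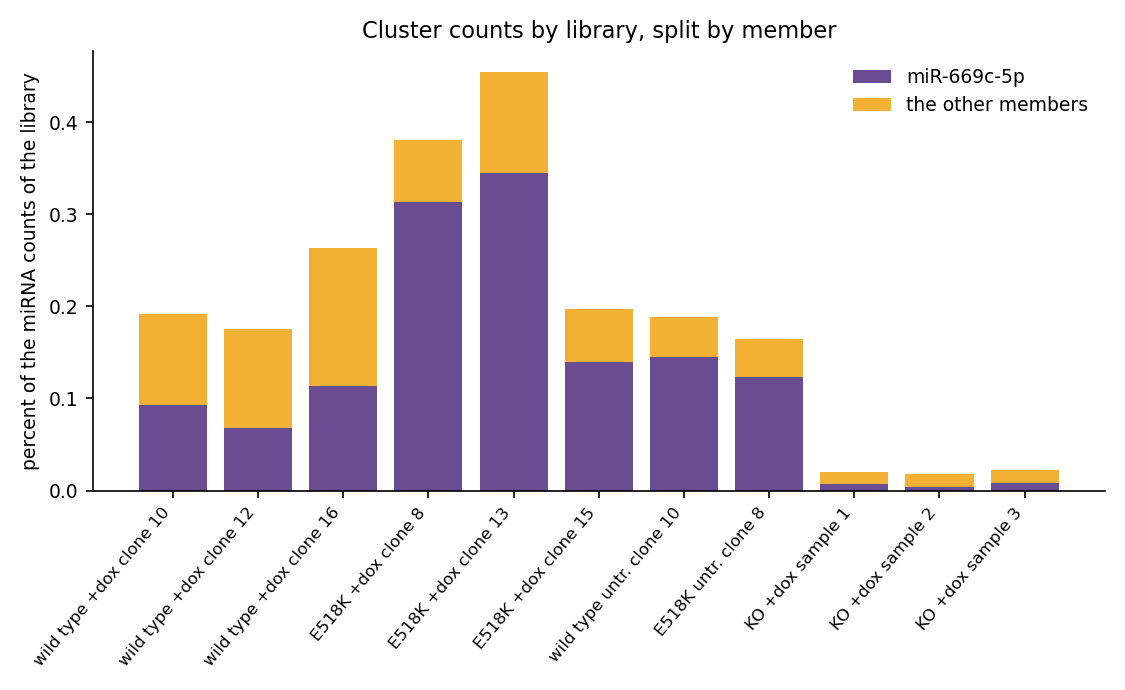
Cluster counts in each of the 11 libraries as a percent of that library's miRNA counts (y axis), split into miR-669c-5p and the other members. The 3 E518K induced bars are mostly miR-669c-5p (70.9% to 82.2%), the 3 wild-type induced bars are not (38.6% to 48.6%), and the KO bars stand near 0.02%.

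With miR-669c-5p set aside, the make-up of the remaining counts also differed. The miR-669 family gave 43.8%, 46.9% and 46.7% of them in induced wild type and 31.4%, 39.0% and 32.0% in induced E518K. The miR-297 family gave 8.91%, 9.57% and 11.1% in induced wild type and 20.6%, 18.0% and 15.4% in induced E518K. Neither pair of ranges overlapped. The miR-466 family gave 31.0%, 25.4% and 27.8% in induced wild type and 31.7%, 31.6% and 39.5% in induced E518K, just short of overlapping. The miR-467 family had means of 16.3% and 13.6%, with overlapping ranges. By arm, 3p members gave 11.5% ± 1.26 (SD, n = 3) in induced wild type and 19.2% ± 2.32 (n = 3) in induced E518K, again without overlap. The miR-297 and 3p differences are not separate results. Both include miR-297a-3p, miR-297b-3p and miR-297c-3p, whose counts are locked together, so the same reads may enter each share more than once. Of 3355, 6613 and 8858 counts without miR-669c-5p in induced wild-type clones 10, 12 and 16, miR-297a-3p gave 92, 198 and 298. miR-297b-3p and miR-297c-3p each gave 46, 99 and 149. Of 1218, 1158 and 818 in induced E518K clones 8, 13 and 15, miR-297a-3p gave 104, 82 and 48. miR-297b-3p and miR-297c-3p each gave 52, 41 and 24. These rows thus held most of the miR-297 and of the 3p counts in E518K. Neither difference was computed without them, so neither is read as a change of a family or an arm. No test was made of these shares, since the members were chosen with earlier results of these data known.

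The number of members detected differed between groups that also differed in depth. Of 80 members, 67 had a count somewhere, 64 had one in induced wild type, 41 in induced E518K and 9 in KO, and 13 had none in any library. Each induced wild-type library held 48 to 58 members with a count, each induced E518K library 31 to 34, and each KO library 5. No 3p member had a count in KO. Because wild-type libraries had the highest totals, detection alone is not a comparison of levels. The 27 members that passed the low-count filter entered the tests below; a member that is high in one group only passes through that group.

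The comparison of induced E518K with induced wild type asks how the Wilms tumour substitution changed the output of the cluster. Most members were lower in E518K or did not pass the test, and miR-669c-5p and miR-669h-5p were higher. Of the 27 members tested, 14 fell, 2 rose and 11 did not pass (edgeR quasi-likelihood test, Benjamini-Hochberg adjusted over all 730 miRNAs tested, threshold 0.05). Among all tested miRNAs 35.3% fell and 28.2% rose. Without wild-type clone 16 only 24 members passed the low-count filter, 8 of them fell and the members' median was -0.31. The median log2 change was -1.62 over the members tested, and -0.14 over all tested miRNAs. With miRNAs at 0 in one group placed at the bound that 6 counts allow, these medians were -0.97 and 0.00. By family, 1 of 5 miR-297 members fell, 5 of 8 miR-466 members, 1 of 3 miR-467 members and 7 of 11 miR-669 members, and both that rose were miR-669. For 16 members every E518K library lay below every wild-type library (38.8% of all tested miRNAs), for 3 every one lay above (25.8%), and 8 overlapped. For scale, of the 84 tested miRNAs of the Dlk1-Dio3 cluster, another imprinted cluster, 49 fell and 12 rose (median -1.75), and of the 18 of the miR-290 cluster, the main embryonic stem cell cluster, 9 fell and 9 did not pass (median -0.60).

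miR-669c-5p was the most abundant member. Its level was 1556, 1265 and 1254 CPM in wild-type clones 10, 12 and 16 and 3684, 3019 and 2008 CPM in E518K clones 8, 13 and 15. The groups did not overlap, and the log2 change was 1.10 ± 0.38 (SE, adjusted p = 0.0069, edgeR). This call rested on few libraries. Without E518K clone 8 it was 0.99 (adjusted p = 0.089), without wild-type clone 12 it was 0.93 (0.11) and without wild-type clone 10 it was 1.03 (0.052), all by edgeR. Its direction also turned when the DGCR8-independent list set the library sizes, at -1.68, and it was 1.71 without wild-type clone 16.

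miR-669h-5p was a low member with the same direction. It passed the low-count filter through E518K and KO libraries and not through wild type, so its call is partly set by how it was admitted. It stood at 4.42, 6.07 and 4.45 CPM in wild type (9, 20 and 24 counts) and at 24.9, 15.0 and 18.1 CPM in E518K (38, 18 and 18 counts). Every E518K value was above every wild-type value, and the log2 change was 1.95 ± 0.55 (adjusted p = 0.001, edgeR), or -0.81 with the DGCR8-independent list as library size.

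Members of middle abundance were spread from no detectable change to large decreases. miR-466c-5p, the next most abundant, stood at 278, 248 and 197 CPM in wild type and 181, 220 and 251 CPM in E518K. These values overlapped and the log2 change was -0.15 ± 0.41 (adjusted p = 0.75, edgeR). miR-467c-5p stood at 114, 161 and 96.2 CPM in wild type and 23.6, 9.15 and 19.1 CPM in E518K. The highest E518K value was well under the lowest wild-type value, and the log2 change was -2.82 ± 0.51 (adjusted p = 2.4e-07). miR-669l-5p went from 101, 118 and 94.6 CPM to 20.9, 15.0 and 12.1 CPM, a log2 change of -2.68 ± 0.51 (adjusted p = 9.5e-07), and miR-466b-5p, with 8 hairpins in the intron, from 91.3, 84.7 and 123 CPM to 19.6, 13.3 and 18.1 CPM, a log2 change of -2.54 ± 0.51 (adjusted p = 3.3e-06). miR-467c-5p, miR-669l-5p and miR-466b-5p thus ranked beside miR-669o-5p in wild type and well under it in E518K.

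miR-467e-5p, miR-669d-5p and miR-669o-5p, as abundant as those in wild type, did not pass. miR-467e-5p had 127, 179 and 118 CPM in wild type and 96.9, 82.4 and 74.6 CPM in E518K (log2 change -0.74 ± 0.44, adjusted p = 0.13). miR-669d-5p had 103, 148 and 105 CPM and 51.1, 89.8 and 48.4 CPM (-0.91 ± 0.46, adjusted p = 0.075). Both had non-overlapping groups, and both passed with DESeq2 (-0.90, adjusted p = 0.0074, and -1.05, adjusted p = 0.045). miR-669o-5p overlapped between the groups, at 96.2, 109 and 94.2 CPM and at 62.8, 106 and 50.4 CPM (-0.44 ± 0.46, adjusted p = 0.39). The locked pair miR-669m-5p and miR-669b-5p fell by 1.62 each on the log2 scale (adjusted p = 0.00061 and 0.0017). miR-669m-5p went from 197, 262 and 221 CPM to 52.4, 93.2 and 76.6 CPM. Without wild-type clone 16 the changes were -0.92 (adjusted p = 0.14) and -0.93 (0.18), and without E518K clone 8 both were -1.31 (0.072 and 0.097), and with total miRNA counts both were -1.18 (0.055 and 0.073), so these calls too depended on single libraries and on the scaling.

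**Figure D2:**
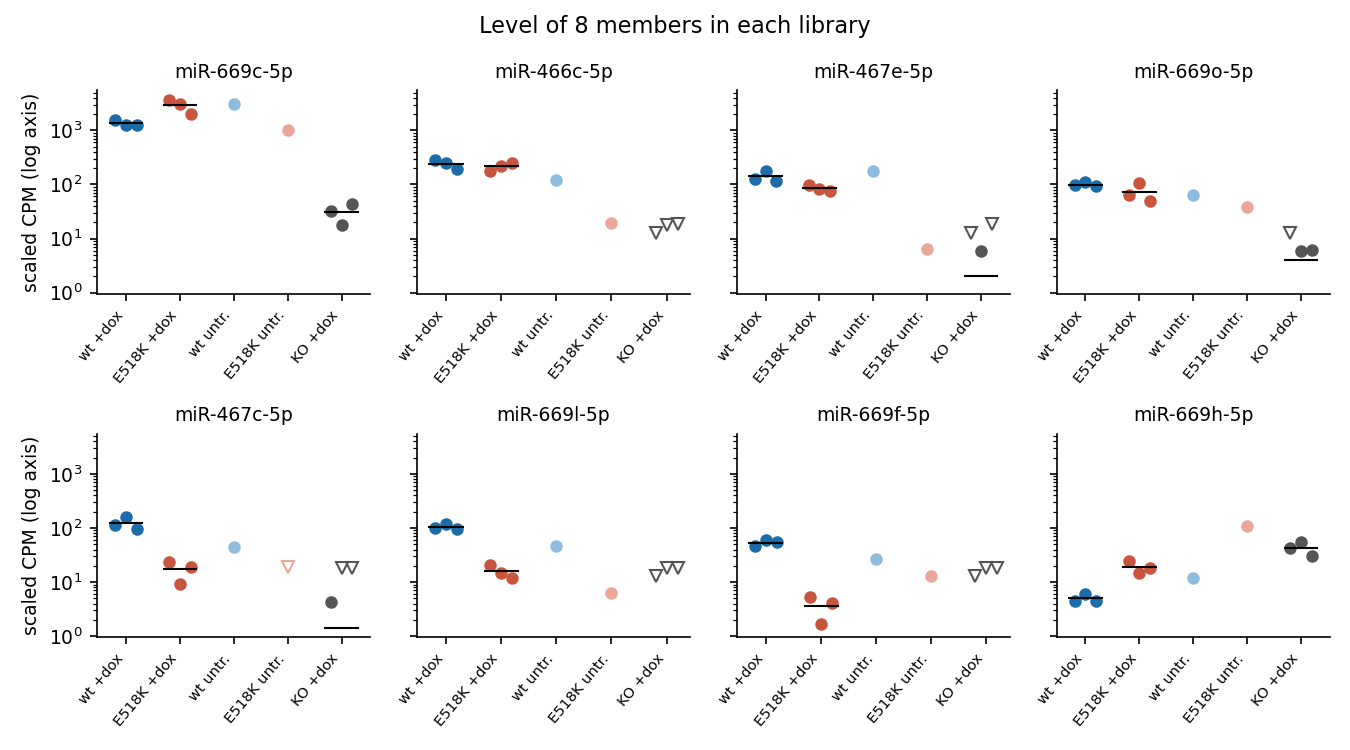
Scaled CPM (log axis) of 8 members in each library by group; filled points are libraries, short lines are group means with a library without counts taken as 0, and open triangles mark libraries with no count, drawn at the level of 6 counts. miR-467c-5p, miR-669l-5p and miR-669f-5p show E518K induced libraries well below wild type induced, miR-466c-5p shows overlapping groups, and miR-669h-5p is highest in untreated E518K and KO.

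The largest decreases were in members of lower level. miR-669f-5p stood at 46.6, 60.4 and 54.0 CPM in wild type and 5.24, 1.66 and 4.03 CPM in E518K, a log2 change of -3.83 ± 0.61 (adjusted p = 4.5e-09). Its other arm, miR-669f-3p, stood at 23.6, 31.0 and 31.0 CPM and 0, 1.66 and 4.03 CPM, a log2 change of -4.03 ± 0.73 (adjusted p = 2e-07). In E518K these were 8, 2 and 4 counts of miR-669f-5p and 0, 2 and 4 of miR-669f-3p, mostly under the floor of 6. The sizes of the falls of these arms therefore cannot be set against each other. miR-466f-5p went from 40.2, 54.4 and 36.7 CPM to 1.31, 6.66 and 0 CPM, the latter from 2, 8 and 0 counts (-3.98 ± 0.65, adjusted p = 7.9e-09). miR-466f, the row of that name with no arm, had 27, 59 and 64 counts in wild type and none in E518K, at least 2.88-fold lower against the floor. miR-466n-3p went from 8.83, 12.5 and 10.8 CPM to 1.31, 0 and 0 CPM, the latter from 2, 0 and 0 counts (-4.16 ± 1.08, adjusted p = 0.00033). With DESeq2 it did not pass (adjusted p = 0.06). miR-669f-3p, miR-466f and miR-466n-3p passed the low-count filter through induced wild-type libraries alone, so their falls are partly set by how they were admitted. miR-297a-5p and miR-669p-3p, both counted among the members that fell, passed it through the untreated E518K library alone, on 2 and 4 counts. miR-297a-5p (18, 18 and 26 counts in wild type, none in E518K) was at least 1.28-fold lower, while its 3p arm, locked with miR-297b-3p and miR-297c-3p, had 45.2, 60.1 and 55.3 CPM in wild type and 68.1, 68.2 and 48.4 CPM in E518K and did not pass (0.20 ± 0.47, adjusted p = 0.71). miR-466d-3p was above wild type in all 3 E518K libraries (27.5, 41.6 and 26.2 CPM against 16.2, 20.6 and 16.9 CPM) but did not pass (0.82 ± 0.50, adjusted p = 0.14).

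The scaling between libraries matters for these directions. With total miRNA counts in place of TMM the median of all tested miRNAs moved by 0.34 and 11 members fell and 2 rose. With the DGCR8-independent list as library size it moved by -2.76, and 26 members fell and 1 did not pass, while 68.2% of all tested miRNAs fell and 1.64% rose. A change of scaling moves all members of a library by one factor, while the description that follows sets members side by side.

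Single-hairpin members near the start of the cluster fell and most of those near its end did not. This was seen among the 18 tested members with a single hairpin, which lies in Sfmbt2 (16 hairpins, 2 of them with both arms tested), after the hairpin span was split into 3 segments of equal length. The split was chosen after the values were seen and carries no test. In the start segment, 96.2 to 113.4 kb from the start of Sfmbt2 and with 28 hairpins, 7 of 7 such members fell, with a median log2 change of -2.82 (range -4.03 to -1.62). Of these 7, miR-669f-3p and miR-466o-5p passed the low-count filter through induced wild-type libraries alone, and miR-669e-5p through wild-type libraries alone. Their falls are thus partly set by how they were admitted. In the end segment, 130.6 to 147.7 kb and with 23 hairpins, 1 of 11 fell, 2 rose and 8 did not pass, with a median of -0.44 (range -4.16 to 1.95). Among these 11, miR-297b-3p and miR-297c-3p have the same counts and are not separate measurements. Both are locked with miR-297a-3p, which also has a hairpin at 101.81 kb, in the start segment. The middle segment held 19 hairpins and no such member. Across the 18 members Spearman's rho between place and log2 change was 0.61 and Pearson's r was 0.73, as a description: the members share libraries, near-identical sequences and in part reads.

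The 7 members of the start segment come from 6 hairpins that lie close together. Mir669f (chr2:10467229-10467349), Mir669e (chr2:10467495-10467613), Mir669b (chr2:10467790-10467886) and Mir669l (chr2:10468971-10469068) stand within a short stretch, followed by Mir466o (chr2:10472540-10472623) and Mir467c (chr2:10473931-10474027). miR-669e-5p fell by 3.60 on the log2 scale (from 40.2, 52.2 and 31.5 CPM to 1.31, 3.33 and 6.05 CPM, adjusted p = 7.4e-08) and miR-466o-5p fell by 2.69 (from 12.8, 11.8 and 17.8 CPM to 2.62, 1.66 and 2.02 CPM, adjusted p = 0.0014). In E518K these were 2, 4 and 6 counts of miR-669e-5p and 4, 2 and 2 of miR-466o-5p, at or under the floor of 6. miR-669b-5p, the smallest of the 7 changes, is the member locked to miR-669m-5p at the far end, so its reads cannot be placed at the start alone.

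In the end segment Mir467e (chr2:10505721-10505807), Mir669c (chr2:10509296-10509404), Mir669o (chr2:10514300-10514395) and Mir669h (chr2:10518155-10518279) gave the members described above that rose or did not pass. miR-467d-5p stood at 20.6, 15.8 and 13.3 CPM in wild type and 7.85, 15.0 and 10.1 CPM in E518K (-0.59, adjusted p = 0.37), and miR-466h-5p at 20.6, 26.7 and 16.5 CPM and 6.55, 9.98 and 18.1 CPM (-0.91, adjusted p = 0.14). Both overlapped between groups. The exception was miR-466n-3p (Mir466n, chr2:10513741-10513834), which fell by 4.16, from few counts. miR-467c-5p and miR-467e-5p, members of one family with similar wild-type levels, lie at opposite ends and changed by -2.82 and -0.74.

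Members with more than one hairpin were not part of the split and did not all follow it. miR-669d-5p, with 2 hairpins in the start segment, changed by -0.91 and did not pass. miR-466c-5p, whose 2 hairpins start 111.09 kb or more from the start of Sfmbt2, changed by -0.15. miR-466b-5p, with 8 hairpins from 103.78 kb on, fell by 2.54. miR-669m-5p, with 2 hairpins in the end segment from 142.35 kb on, fell by 1.62. Over 14 other settings, the rho across single-hairpin members ran from 0.60 to 0.82 and the start-segment median stayed 1.95 to 3.18 below the end-segment median. With 1 arm per hairpin (16 hairpins) rho was 0.59. In the start segment 5 to 7 members fell over these settings, and without wild-type clone 16 it was 5 of 6. In the end segment 0 to 2 fell, other than with the DGCR8-independent list as library size, where 10 of 11 did.

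**Figure D3:**
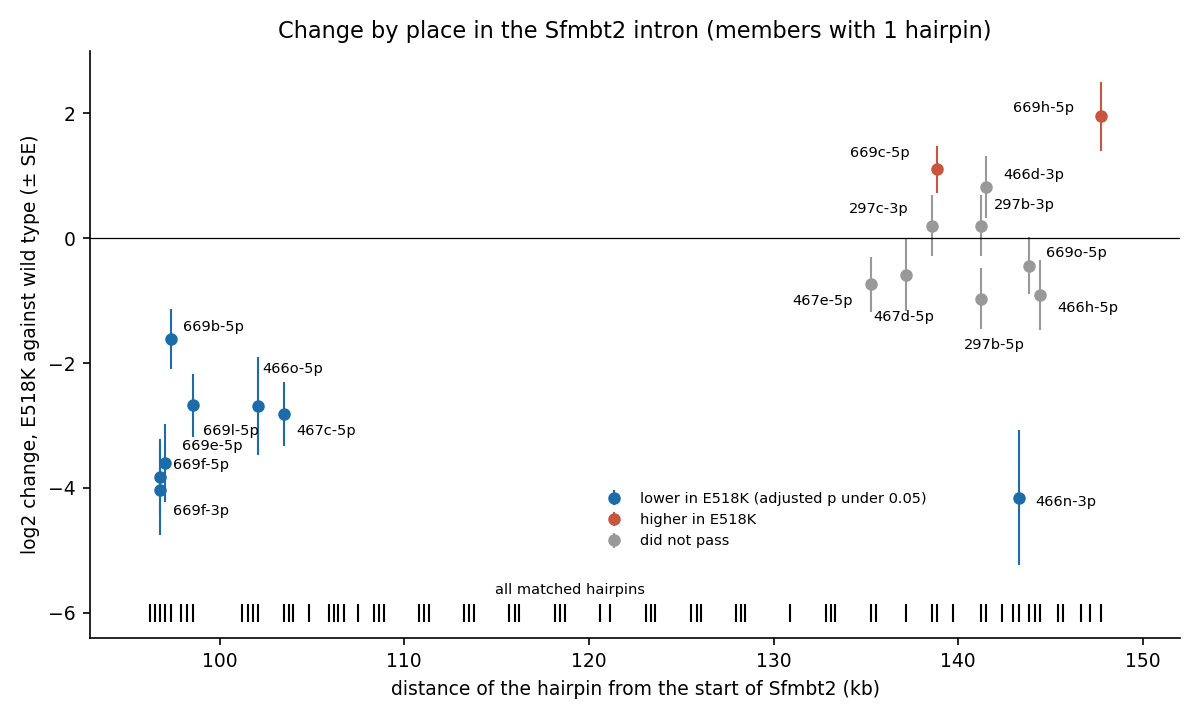
Log2 change of induced E518K against induced wild type (points, with SE bars) of the 18 tested members with 1 hairpin, against the distance of that hairpin from the start of Sfmbt2 in kb; ticks at the bottom mark all matched hairpins in the gene. The 7 members at 96.2 to 113.4 kb lie between -4.03 and -1.62, and of the 11 beyond 130.6 kb, 10 lie between -0.97 and 1.95 and miR-466n-3p lies at -4.16.

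In KO cells the cluster was nearly empty. Of the 27 members tested, 26 were lower than in induced wild type and 1, miR-669h-5p, was higher (edgeR, adjusted p under 0.05). Among all tested miRNAs 58.4% were lower and 30.0% higher. Every KO library lay below every wild-type library for the same 26 members and above for that 1, against 60.0% and 24.9% of all tested miRNAs. The median log2 change was -7.64, a value set by zero counts: 19 of the 27 members had no count in any KO library, and the median of all tested miRNAs was -3.54. With miRNAs at 0 in one group at their bound, the medians were -1.71 for the members and -0.31 for all tested miRNAs. At this depth miR-466c-5p was at least 14.7-fold lower, miR-669m-5p at least 13.8-fold, miR-669b-5p at least 6.92-fold, miR-669l-5p at least 6.37-fold and miR-466b-5p at least 6.10-fold, each against the floor.

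Some members kept counts in KO. miR-669c-5p had 15, 6 and 14 counts (32.0, 18.0 and 42.7 CPM, against 1254 to 1556 CPM in wild type), a log2 change of -5.45 ± 0.48 (adjusted p = 8.1e-27, edgeR). miR-467e-5p had 0, 2 and 0 counts, miR-467c-5p 2, 0 and 0, miR-669d-5p 0, 0 and 4, and miR-669o-5p 0, 2 and 2. These 4 were called lower than wild type, but their counts lay under the floor of 6, so no fold is given: leaving out 1 library moved the fitted log2 change of miR-467e-5p between -10.82 and -5.08, that of miR-467c-5p between -10.67 and -4.78 and that of miR-669d-5p between -10.58 and -3.75. miR-297b-5p had 8 counts in KO sample 3 and none in the other KO libraries.

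miR-669h-5p went the other way. It had 20, 18 and 10 counts in KO, a higher level than in the far deeper wild-type libraries: 42.7, 54.1 and 30.5 CPM against 4.42, 6.07 and 4.45 CPM. The groups did not overlap and the log2 change was 3.07 ± 0.58 (adjusted p = 3.2e-07, edgeR). In KO it gave more counts than miR-669c-5p in 2 of 3 libraries, though in wild type it was the lowest of the 27 members tested. The 3p arm of this hairpin had no count in any library. With the scaling implied by the authors' pRPM values the change was 1.23 (adjusted p = 0.075), and with the DGCR8-independent list as library size it was -2.09, so its direction against wild type depends on the scaling. This list itself took a larger share of KO than of wild-type counts, as given above.

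Induced E518K cells had many of the members that KO cells lacked. Of 27 members, 19 were higher in E518K than in KO, none was lower and 8 did not pass (edgeR). Among all tested miRNAs 41.9% were higher and 26.2% lower. At an unadjusted p under 0.05, 1 member was lower, and DESeq2 called 1 lower. The E518K libraries all lay above the KO libraries for 20 members (42.7% of all tested miRNAs), all below for 1 (24.8%) and overlapped for 6. The median log2 change was 5.50, against 1.35 over all tested miRNAs, or 0.06 against 0.00 with miRNAs at 0 in one group at their bound. miR-669c-5p was higher by 6.55 ± 0.50 (adjusted p = 2.4e-34). miR-467e-5p was called higher as well, with 148, 99 and 74 counts in E518K against 2 in all KO libraries together, and its fitted log2 change ran from 4.27 to 10.02 with 1 library left out. miR-466c-5p was at least 13.3-fold higher, miR-669m-5p at least 4.52-fold, miR-297a-3p at least 3.76-fold, miR-669b-5p at least 2.26-fold and miR-466d-3p at least 1.94-fold.

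The members differed in where their E518K level lay beside KO and wild type. These comparisons share the KO and E518K libraries, so only the levels are set out. miR-466c-5p was 0 CPM in KO, 217 ± 35.2 CPM in E518K and 241 ± 41.1 CPM in wild type (SD, n = 3 each). miR-669c-5p was 30.9 ± 12.4, 2904 ± 844 and 1358 ± 171 CPM. miR-467c-5p was 1.42 ± 2.46, 17.3 ± 7.38 and 124 ± 33.5 CPM, and was called higher in E518K than in KO on 2 KO counts in all (adjusted p = 0.0013). That call was lost without E518K clone 8 (2.38, adjusted p = 0.066) and without KO sample 2 or 3 (1.91, 0.13, and 1.97, 0.11). miR-466f-5p was 2.84 ± 4.93, 2.65 ± 3.53 and 43.8 ± 9.34 CPM, with no detectable difference between E518K and KO (-0.35 ± 1.06, adjusted p = 0.79). miR-669h-5p fell in between, at 42.4 ± 11.8, 19.3 ± 5.06 and 4.98 ± 0.947 CPM, the E518K libraries below all KO libraries without passing (-1.12 ± 0.55, adjusted p = 0.061). With DESeq2 that last difference passed (-1.39, adjusted p = 0.008).

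Doxycycline induction was checked against a single untreated library per construct, whose spread is taken to be that of the other groups. For wild type (3 induced clones against untreated clone 10), 3 of 27 members were higher after induction, none was lower and 24 did not pass, against 15.9% and 18.9% of all tested miRNAs. At an unadjusted p under 0.05, 1 was lower. The counts depend on the scaling: the pRPM scaling gave 7 higher and 0 lower, total miRNA counts 3 and 0, and the DGCR8-independent list 26 and 0. The 3 were miR-297a-3p (2.19 ± 0.88, adjusted p = 0.038), miR-297b-5p (3.33 ± 1.00, adjusted p = 0.0048) and miR-466b-5p (2.29 ± 0.82, adjusted p = 0.02). In the untreated library they had 8, 4 and 14 counts, so miR-297b-5p lay under the floor of 6 there. Without wild-type clone 16 both miR-297a-3p (adjusted p = 0.088) and miR-466b-5p (0.083) were lost, as was miR-297a-3p without clone 12 (0.053). miR-669c-5p was at 3015 CPM untreated and 1358 ± 171 CPM induced (-1.15 ± 0.50, adjusted p = 0.056), and its change was 2.04 with the DGCR8-independent list as library size. The untreated wild-type library thus already held the cluster, with 2690 counts over 31 members.

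For E518K (3 induced clones against untreated clone 8), 10 members were higher after induction, 3 were lower and 14 did not pass, against 28.4% and 24.4% of all tested miRNAs. With the pRPM scaling it was 16 higher and 0 lower, and with the DGCR8-independent list 20 and 0. The untreated library held 436 cluster counts, 326 of them miR-669c-5p, and only 18 members with a count. miR-466c-5p went from 19.1 CPM to 217 ± 35.2 CPM (3.50 ± 0.84, adjusted p = 0.00017), miR-467e-5p from 6.36 to 84.6 ± 11.3 CPM (3.72 ± 1.08, adjusted p = 0.002) and miR-669c-5p from 1036 to 2904 ± 844 CPM (1.49 ± 0.58, adjusted p = 0.024). The call for miR-669c-5p was lost without E518K clone 8 (1.35, adjusted p = 0.12) and with total miRNA counts (1.11, adjusted p = 0.14). miR-669h-5p fell from 108 to 19.3 ± 5.06 CPM (-2.47 ± 0.69, adjusted p = 0.0013), and this was -0.61 (adjusted p = 0.57) with the pRPM scaling and turned to 0.82 with the DGCR8-independent list as library size. The other members that fell, miR-466f-5p and miR-297a-5p, rest on 6 counts or fewer in the untreated library. The rises of miR-466c-5p and miR-467e-5p likewise rest on 6 and 2 counts there, where 6 counts stand for 19.1 CPM. Of the 27 members, 11 had no count in the untreated library and some after induction. The members' median log2 change was 2.87 as fitted, and 0.54 with miRNAs at 0 in one group at their bound.

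An interaction test of the induction effects passed for 5 members, lower in E518K for 3 and higher for 2, against 4.11% and 17.4% of all tested miRNAs. Of the 3, miR-297a-5p and miR-669p-3p got past the low-count filter (7.05 CPM) through the untreated E518K library alone, with 2 and 4 counts there, so their calls follow from how they were admitted and support nothing. miR-669c-5p was among those higher, with all 3 induced E518K clones above their untreated library and all 3 induced wild-type clones below theirs. These 5 differences rest on the single untreated libraries, and without E518K clone 8 or wild-type clone 12 none of them passed.

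The ratio of the strands of one hairpin could be followed in 11 hairpin names with at least 20 counts over both arms in each induced wild-type and E518K library. A permutation test of 3 against 3 libraries cannot go below p = 0.1. In 5 of the 11 the log2 ratio of 5p to 3p counts did not overlap between groups, and in all 5 it was lower in E518K (two-sided exact permutation p = 0.1, adjusted p = 0.22 over the 11). The share over all miRNA hairpins was not computed, so this count is not read as a trait of the cluster. For miR-466c and miR-669o the 3p arm had no count in any library, so the ratio follows the 5p count alone. It thus rises with library depth, which was greater in every induced wild-type library than in any induced E518K library. The direction of these ratios says nothing on the arms. For miR-297a and miR-466d the 5p arm was the sparse one: miR-297a had 18, 18 and 26 counts of 5p beside 92, 198 and 298 of 3p in wild type, and none of 5p beside 104, 82 and 48 of 3p in E518K. With 10 added to each arm in place of 1, the difference between groups shrank from -3.18 to -0.46 for miR-297a. For miR-466d it shrank from -1.63 to -0.34. For miR-669b, miR-669d and miR-669m, whose groups overlapped, it moved to -2.16, -1.82 and -1.98. Their 3p arms had no count in any induced E518K library. In wild-type clones 10, 12 and 16 they had 0, 10 and 10 (miR-669b), 2, 4 and 4 (miR-669d) and 0, 12 and 24 counts (miR-669m). These ratios thus also follow the 5p count, and so depth, and the moved values say nothing on the arms. Only miR-297b had at least 5 counts on both arms in every one of the 6 libraries. Its 5p arm had 97, 215 and 349 counts and its 3p arm 46, 99 and 149 in wild-type clones 10, 12 and 16. In E518K clones 8, 13 and 15 there were 39, 42 and 30 counts of 5p and 52, 41 and 24 of 3p. The log2 ratio was thus 1.06, 1.11 and 1.22 in wild type and -0.41, 0.03 and 0.31 in E518K, a difference of -1.15. The 3p reads of miR-297b are counted for miR-297c as well, so the 3p part cannot be given to one hairpin.

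**Figure D4:**
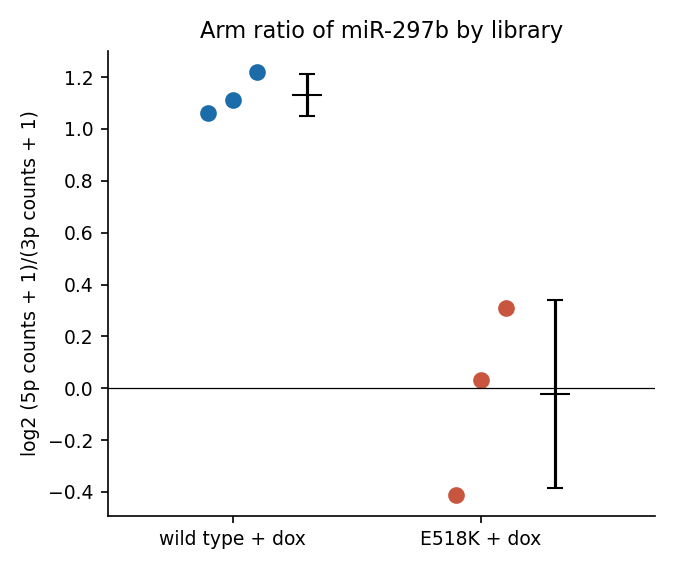
Log2 ratio of 5p to 3p counts of miR-297b (1 added to each) in the 3 induced wild-type and 3 induced E518K libraries; points are libraries, and the bars beside them are means with SD. Wild type lies at 1.06 to 1.22 and E518K at -0.41 to 0.31.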

How the data were processed

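Read counts per mature miRNA, deposited by the authors for 11 libraries and left unnormalized per the file headers, were the values analysed. The authors also deposited the same miRNAs in a scaled RPM unit, named pRPM in the header and used here only as an alternative scaling. Per the submitters' processing notes STAR, bedtools and GRCm38.p6 were used; no source used here gives the counting, strand or multi-mapping rule. The deposited piRNA file was identical to the pRPM file and was not used.

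Groups came from the sample titles. Counts of all 1966 miRNAs were tested with edgeR 4.0.16 (R 4.3.3): TMM scaling, filterByExpr (minimum count 10, minimum total 15; 730 miRNAs left, 27 of them members), robust quasi-likelihood fit of 5 groups, Benjamini-Hochberg adjustment, threshold 0.05; the SE is the log2 change over the root of F. DESeq2 1.42.0, other scalings and left-out libraries were alternatives, and the fit was tested on simulated data. Hairpins were matched by name to RefSeq (GRCm38.p6) and placed in introns with the GENCODE annotation. The members, lists and tests were chosen with earlier results of these data known. Named members were the 8 most abundant, up to 5 largest changes a direction and comparison that passed and reached 10 CPM, the members that moved against the majority, and the other arms of these; members named for position, a shared count, a family or a strand ratio were added after values were seen. The SE includes the spread between libraries as estimated in the fit, the SD is the spread over the libraries of a group, and floors cover counting error only.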

Additional observations from a re-analysis of the deposited data

Results flagged for a closer look

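For 5 of the 27 members the effect of doxycycline passed as different between the E518K and the wild-type construct in a test of the difference itself (edgeR interaction term, induction effect in E518K minus induction effect in wild type, on the log2 scale); 3 differences were negative and 2 positive, where 4.11% and 17.4% of all tested miRNAs were. miR-669c-5p differed by 2.64 ± 0.77 (adjusted p = 0.0054): its level was above the untreated library in all 3 induced E518K clones and below it in all 3 induced wild-type clones. miR-467e-5p differed by 4.08 ± 1.24 (adjusted p = 0.0085), with 2 counts in untreated E518K and 124 in untreated wild type. miR-466f-5p differed by -4.11 ± 1.38 (adjusted p = 0.019). miR-297a-5p differed by -12.54 ± 4.29 (adjusted p = 0.021) and miR-669p-3p by -9.64 ± 3.54 (adjusted p = 0.035), from 2 and 4 counts in untreated E518K and none in untreated wild type. These 2 members got past the low-count filter (7.05 CPM) only through that untreated E518K library, so their differences follow from the filter and support nothing. Each effect rests on 1 untreated library per construct. With total miRNA counts as library size no member differed in the positive direction, and without E518K clone 8 or wild-type clone 12 none differed in either direction.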

How the results depend on the processing

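Single members, arm ratios and position counts kept their result in most alternatives (1054 of 1171 combinations with a setting). Of the others, 10 reversed, 49 fell short of the threshold, 44 came past it and 14 moved. The numbers of members called, the medians and the cluster shares were less stable: 89 of 227 moved and 138 stayed. Many of the changes that touch a result described above stand beside it or here, and the cause was not tested. No paired analysis was possible because the groups compared share fewer than 2 clone numbers (clone 10 in the wild-type groups and clone 8 in the E518K groups only). With the DGCR8-independent list as library size, E518K against wild type gave 26 members lower, 0 higher and a median log2 change of -4.40, and reversed miR-669c-5p (-1.68), miR-669h-5p (-0.81), miR-297a-3p (-2.58) and miR-466d-3p (-1.96). The same scaling reversed miR-669h-5p in KO against wild type (-2.09; 0 members higher, median -10.67) and in E518K against KO (1.28; median 6.61). It also gave 26 members higher on induction of wild type (median 4.35; miR-669c-5p 2.04 and miR-467e-5p 2.84), and 20 higher and 0 lower on induction of E518K (median 4.63; miR-466f-5p 0.44 and miR-669h-5p 0.82).

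For E518K against wild type the median moved to -0.92 with counts divided by 2 and -0.97 with only members whose hairpins all lie in Sfmbt2. For KO against wild type it was -7.46 with total miRNA counts, -7.96 with the pRPM scaling (0 members higher), -4.48 without the low-count filter (2 higher), -7.73 with miRNAs of the same counts merged, -7.03 with counts divided by 2, -8.27 with only the 2 groups in the fit, -5.37 with DESeq2, -7.76 with only Sfmbt2 members and -7.44 with locked members as 1. For E518K against KO it was 5.38 with total miRNA counts (1 member lower), 6.14 with the pRPM scaling, 2.96 without the filter (1 lower), 5.64 merged, 6.17 with counts divided by 2, 7.69 with the 2 groups only (12 higher), 4.17 with DESeq2 (1 lower) and 5.05 with locked members as 1, the last chosen after seeing the data. The induction medians were 1.63 (total miRNA counts), 1.78 (no filter) and 2.09 (pRPM scaling, 7 members higher) for wild type, and 1.12 (no filter), 0.99 (clone 8 only, no test) and 3.44 (pRPM scaling, 16 higher and 0 lower) for E518K, where total miRNA counts gave 6 members higher. The pRPM scaling of the induction effects was added after seeing the data. For the difference of the induction effects total miRNA counts gave 0 higher and a median of 0.20. Without miR-669c-5p, chosen after seeing the data, the cluster took 0.119% (wild type), 0.0786% (E518K) and 0.0140% (KO) of counts.

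Leaving out 1 library at a time gave these ranges. E518K against wild type had 8 to 13 members lower (8 of 24 tested without wild-type clone 16), 1 to 2 higher and a median of -1.77 to -0.31. KO against wild type had 22 to 26 lower, 1 higher and a median of -8.13 to -7.39. E518K against KO had 0 to 1 lower, 15 to 19 higher and a median of 5.41 to 6.02. Induction of wild type had 1 to 3 higher, 0 lower and a median of 1.22 to 1.74, and induction of E518K 7 to 10 higher, 1 to 2 lower and a median of 2.54 to 3.33. The difference of the induction effects had 0 to 3 lower, 0 to 4 higher and a median of 0.49 to 2.56. The cluster share was 0.184% to 0.228% in wild type, 0.290% to 0.418% in E518K and 0.0193% to 0.0215% in KO, and the miR-297b arm difference was -1.32 to -0.96. Depth limits KO most: 6 counts there stand for 12.8 CPM or more, above the wild-type level of several members.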
